A study of Arabidopsis thaliana and Hordeum vulgare and Setaria italica with 13 samples.

Results

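The transfer RNAs that carry valine were followed through 2 sequencing assays of plant seedlings. They are the tRNAs with the anticodons AAC, CAC, GAC and TAC, written below in DNA letters as ValAAC, ValCAC, ValGAC and ValTAC. They make up 4 of the 52 anticodon families of the tRNA-seq values, and 8 of the 532 sequences listed over the 5 YAMAT-seq libraries. In A. thaliana YAMAT-seq the anticodon was taken from the name of each sequence. In the grasses it was read from the middle of the anticodon loop, a rule that gave the named anticodon in 143 of 143 A. thaliana sequences.

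The seedlings were 10 days old and raised on soil under long days of 16 h light at 23 ºC, and the labels name no treatment. The grasses were Hordeum vulgare (barley), Sorghum bicolor (sorghum), Setaria italica (foxtail millet), Triticum aestivum (wheat) and Zea mays (maize), and the eudicots were Arabidopsis thaliana and Glycine max (soybean). All are labelled as seedlings, except that the tRNA-seq samples of A. thaliana are labelled as leaf and as root of seedlings. The labels name no strain, cultivar or genotype and no pooling. All 7 species were profiled by tRNA-seq, a small RNA library, and all but S. bicolor and G. max also by YAMAT-seq, in which a forked adapter joins to the CCA end of full-length tRNAs. Both assays started from RNA treated with a kit for tRNA fragments. The 13 libraries stand for 1 library per group, so no difference between 2 libraries can be set against a spread between replicates. Species take the place of replicates in the tests below. These tests treat species as independent and take no account of how closely they are related. For A. thaliana the values of leaf and root were equal in 52 of 52 families, so the 2 libraries entered as 1 sample. Whether these values stand for leaf, root or both cannot be told. Values of tRNA-seq are given in percent of all tRNA in a library, and their depth is not stated. The smallest value above 0 in a library lay between 0.00710% (H. vulgare) and 0.0253% (S. bicolor). Where ValCAC was listed above 0 it was a whole multiple of that value, from 3.0 times in A. thaliana to 66.0 times in T. aestivum. Low tRNA-seq shares may therefore rest on few reads. YAMAT-seq values are read counts, with totals between 6851530 and 19833183 reads per library.

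Valine is encoded by all codons that begin with GU. In the plant cytosol they are read by nuclear tRNAs with the anticodons AAC, CAC and UAC. The A of AAC is known to be converted to inosine, which pairs with U, C and A, whereas CAC reads GUG alone. Plastids translate with their own bacterial-type valine tRNAs, GAC for codons ending in U and C and UAC for those ending in A and G, and the plastid UAC gene carries an intron. In Escherichia coli the middle and last anticodon bases, shared by all valine tRNAs, are known to be main recognition points for valyl-tRNA synthetase.

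The 8 listed valine sequences are shown because they show the nuclear or plastid form of each anticodon that was read, both forms in the case of ValTAC, and carry every valine read of YAMAT-seq. They are in DNA letters, 5′ to 3′, with the CCA end included and the anticodon in capitals.
S. italica ValAAC, 2 reads: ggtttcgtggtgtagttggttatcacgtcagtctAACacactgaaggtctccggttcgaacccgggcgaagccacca
T. aestivum ValCAC, 2 reads: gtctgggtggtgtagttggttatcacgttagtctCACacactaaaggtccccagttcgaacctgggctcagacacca
A. thaliana ValCAC, 2 reads: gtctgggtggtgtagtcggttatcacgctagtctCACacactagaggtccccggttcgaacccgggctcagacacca
A. thaliana ValGAC, 388 reads: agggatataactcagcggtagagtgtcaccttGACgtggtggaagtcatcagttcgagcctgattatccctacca
H. vulgare ValTAC, 2 reads: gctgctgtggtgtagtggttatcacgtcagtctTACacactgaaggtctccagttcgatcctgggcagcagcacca
T. aestivum ValTAC, 2 reads: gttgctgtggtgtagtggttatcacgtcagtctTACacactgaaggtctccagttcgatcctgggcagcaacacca
A. thaliana ValTAC of nuclear sequence, 4 reads: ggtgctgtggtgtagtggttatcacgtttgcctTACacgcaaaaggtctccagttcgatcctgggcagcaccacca
A. thaliana ValTAC of plastid sequence, 1393 reads: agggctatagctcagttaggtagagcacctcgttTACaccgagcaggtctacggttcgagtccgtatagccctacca

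The A. thaliana sequences were located in the TAIR10.1 genome after removal of the CCA end. ValTAC with 1393 reads was identical to the joined exons of trnV (ArthCt103), on the minus strand at plastid positions 51199 to 51871, where exons at 51833 to 51871 and 51199 to 51233 flank an intron of 599 bases. The deposited sequence is that of the spliced tRNA. ValGAC with 388 reads was identical to 2 plastid genes, Arthct121 at 100709 to 100780 on the plus strand and ArthCt112 at 137869 to 137940 on the minus strand. The other ValTAC sequence, with 4 reads, matched 5 nuclear genes, among them AT1G01870 at chr1:306384-306456 on the plus strand. ValCAC, with 2 reads, matched 7 nuclear genes, among them AT2G22110 at chr2:9393670-9393743 on the plus strand. The plastid ValTAC sequence stood 30 edits from the nearest nuclear valine gene and the ValGAC sequence stood 34 edits from its nearest, so plastid and nuclear forms were far apart. The mitochondrial annotation held 22 tRNA genes, 0 of them for valine.

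No A. thaliana ValAAC sequence was listed in YAMAT-seq. The S. italica ValAAC sequence was identical over all 74 bases before its CCA end to 13 of the 15 nuclear ValAAC genes of A. thaliana, among them AT1G12510 at chr1:4266988-4267061 on the minus strand. The deposited grass sequence and these eudicot genes thus shared every base. The ValTAC sequences of H. vulgare and T. aestivum each stood 8 edits from the nearest nuclear ValTAC gene of A. thaliana and 30 from the plastid one. No grass genome was used, so their nuclear origin rests on this distance alone. ValTAC had 89.0% of its bases in common between H. vulgare and the nuclear sequence of A. thaliana, and 97.3% between H. vulgare and T. aestivum. From the A. thaliana to the H. vulgare sequence the substitutions, counted from the 5′ end, were G2C, T28C, T29A, C31T, G39A, A41T, A42G and C71G. All 8 lay in 4 base pairs of the acceptor and anticodon stems in which both bases differed, and all 4 pairs were Watson-Crick pairs in both species. The 2 substitutions from H. vulgare to T. aestivum, C2T and G71A, likewise changed both bases of 1 acceptor pair. Of the 5 substitutions in ValCAC from A. thaliana to T. aestivum, C28T and G44A form a pair of the anticodon stem and G53A and C63T a pair of the T stem, and C17T lies outside the acceptor, anticodon and T stems. The base before the CCA end was A in 8 of 8 sequences.

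ValAAC was the main valine tRNA by tRNA-seq in 6 of the 7 species. It made up 11.4% of the tRNA abundance in H. vulgare, 2.79% in S. bicolor, 9.36% in S. italica, 4.03% in T. aestivum and 0.904% for Z. mays, with A. thaliana at 0.544% and G. max at 3.49%. The highest value was 20.9 times the lowest. In H. vulgare ValAAC ranked 1 among the 52 families and in S. italica it ranked 4, whereas it ranked 16 in Z. mays and 26 in A. thaliana. G. max stood above S. bicolor and Z. mays, so grasses and eudicots overlapped.

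ValCAC, which reads GUG, was a minor part of the valine tRNAs in every species, although it ranked 25 among the 52 families in T. aestivum. It was 0.383% in H. vulgare, 0.177% in S. bicolor, 0.164% in S. italica, 0.477% in T. aestivum and 0.0419% for Z. mays, against 0.0297% in A. thaliana, and was listed at 0 in G. max. Every grass thus stood above either eudicot, by a narrow margin in Z. mays. The sources used here do not say whether the reference tRNAs of G. max held ValCAC. ValCAC was 5.0 times the smallest value above 0 in the Z. mays library and 3.0 times that in the A. thaliana library, so the order of these 2 rests on values near the lowest listed. ValAAC was 29.7 times as abundant as ValCAC in H. vulgare, 15.7 times in S. bicolor, 57.2 times in S. italica, 8.45 times in T. aestivum and 21.6 times for Z. mays, against 18.3 times in A. thaliana.

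ValGAC, the plastid anticodon for GUU and GUC, was listed at 0 in H. vulgare, S. bicolor, S. italica and T. aestivum and stood at 0.134% in Z. mays, with A. thaliana at 0.188% and G. max at 0.195%. The grass group overlapped with neither eudicot. The plastid genomes of grasses are known to carry this gene too, and the sources used here do not say whether the reference tRNAs of the 4 grasses at 0 held it.

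ValTAC, an anticodon with both a nuclear and a plastid form that the tRNA-seq values do not tell apart, was 0.880% in H. vulgare, 1.12% in S. bicolor, 0.970% in S. italica, 0.839% in T. aestivum and 0.0753% for Z. mays, with A. thaliana at 0.554% and G. max at 0.0390%. Z. mays and G. max stood well below the other 5 species, of which A. thaliana was the lowest. In the other 4 grasses ValTAC was nearly level, within 0.839% to 1.12%, while ValAAC ranged from 2.79% to 11.4% in the same libraries.

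**Figure D1:**
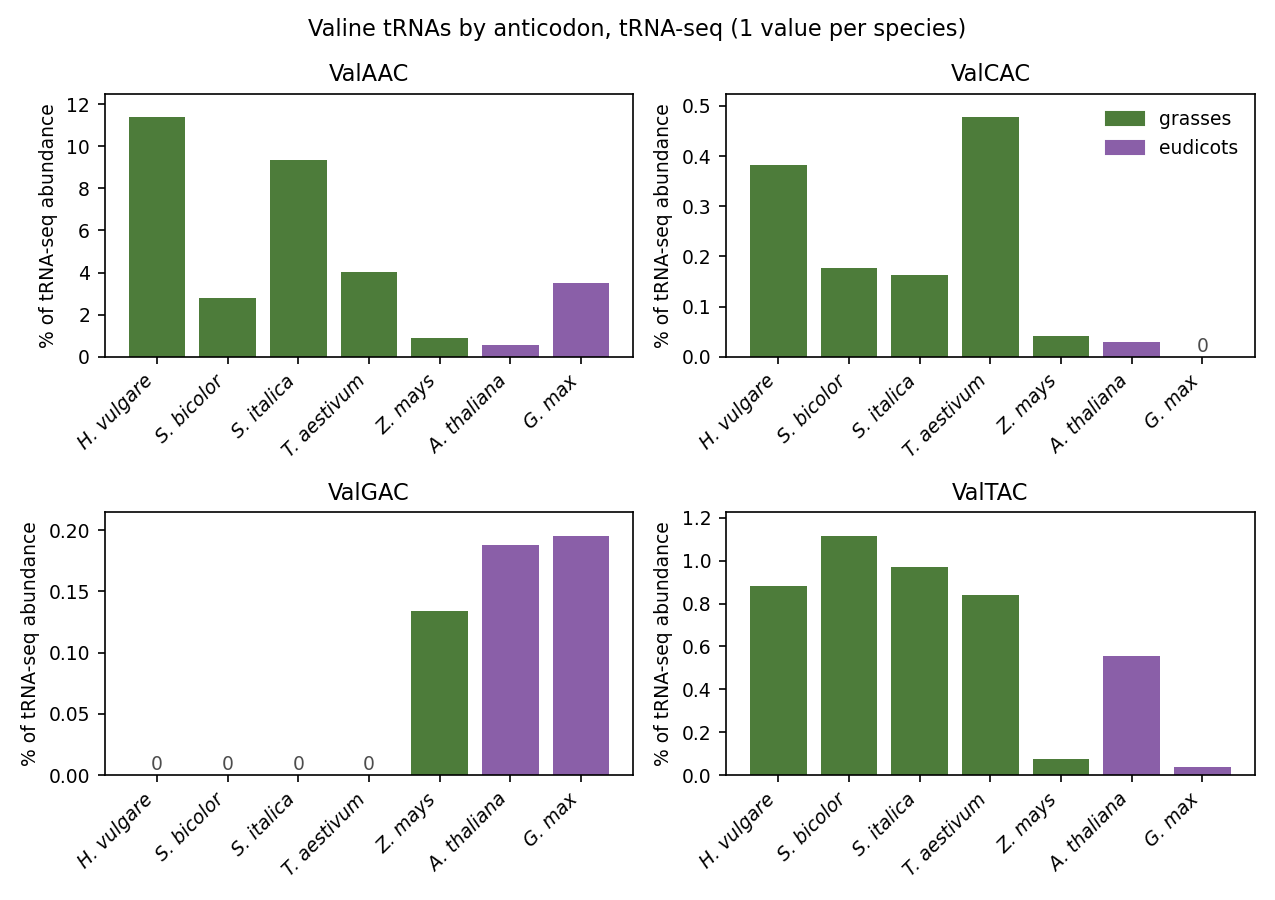
Share of each valine anticodon in the tRNA-seq abundance of a library, in percent, with 1 bar per species, grasses left and eudicots right; each panel has its own scale and 0 marks families listed at 0. ValAAC reaches 11.4% in H. vulgare, ValCAC is higher in all 5 grasses than in both eudicots, and ValGAC is at 0 in 4 grasses.

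Summed over the 4 anticodons, valine tRNAs made up 12.6% of tRNA-seq abundance in H. vulgare, 4.08% in S. bicolor, 10.5% in S. italica, 5.35% in T. aestivum and 1.16% for Z. mays, with A. thaliana at 1.32% and G. max at 3.73%. Among the 20 amino acids valine ranked 2 in H. vulgare, 8 in S. bicolor, 3 in S. italica, 10 in T. aestivum and 14 for Z. mays, with A. thaliana at 13 and G. max at 7. Valine therefore lay above the median amino acid in 5 species and below it in Z. mays and A. thaliana. The grass mean was 6.74% ± 4.72 (SD, n = 5 species), and the eudicot mean was 2.52% over 2 species. The range among the grasses, from 1.16% to 12.6%, covers both eudicot values.

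**Figure D2:**
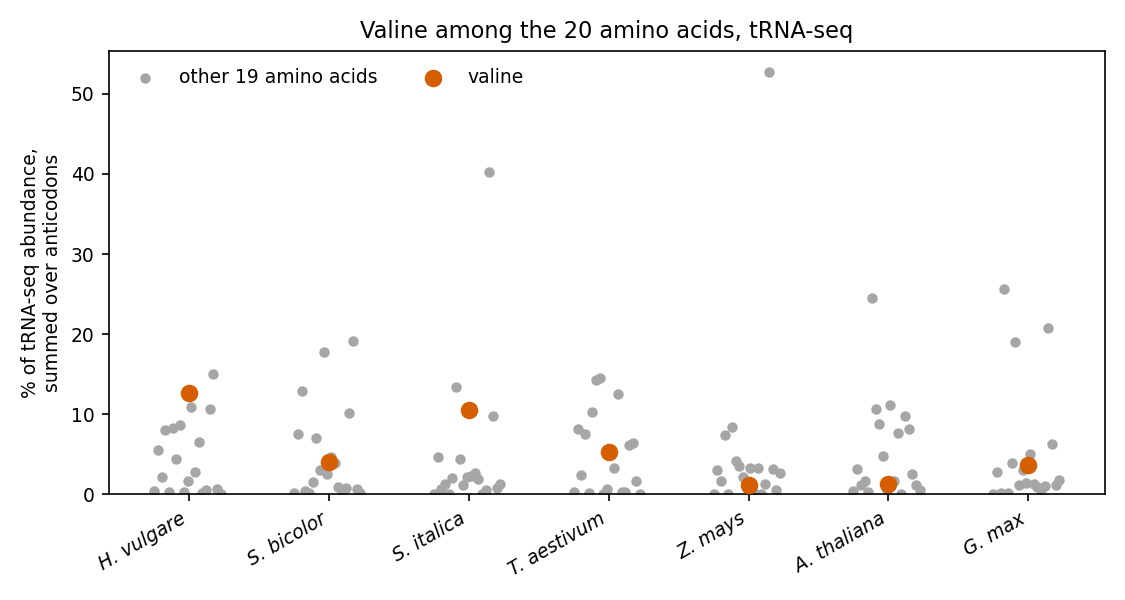
tRNA-seq abundance summed over the anticodons of each amino acid, in percent, with 1 column of points per species, grasses left and eudicots right; the large point is valine and the grey points are the other 19 amino acids. Valine ranks 2 of 20 in H. vulgare at 12.6% and 14 of 20 in Z. mays at 1.16%.

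Within valine, ValAAC held 90.0% of the abundance in H. vulgare, 68.3% in S. bicolor, 89.2% in S. italica, 75.4% in T. aestivum and 78.3% for Z. mays, with A. thaliana at 41.4% and G. max at 93.7%. A. thaliana was the only species of the 7 in which it was not the larger part. There ValTAC held 42.1% and ValGAC 14.3%, so that the 2 anticodons that plastids use, with any nuclear ValTAC counted in, made up more than the rest. ValTAC held 6.97% in H. vulgare, 27.3% in S. bicolor, 9.24% in S. italica, 15.7% in T. aestivum and 6.52% for Z. mays, and 1.05% in G. max. ValGAC held 11.6% in Z. mays and 5.24% in G. max. ValCAC lay between 1.56% in S. italica and 8.92% in T. aestivum among the grasses and was 2.26% in A. thaliana.

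**Figure D3:**
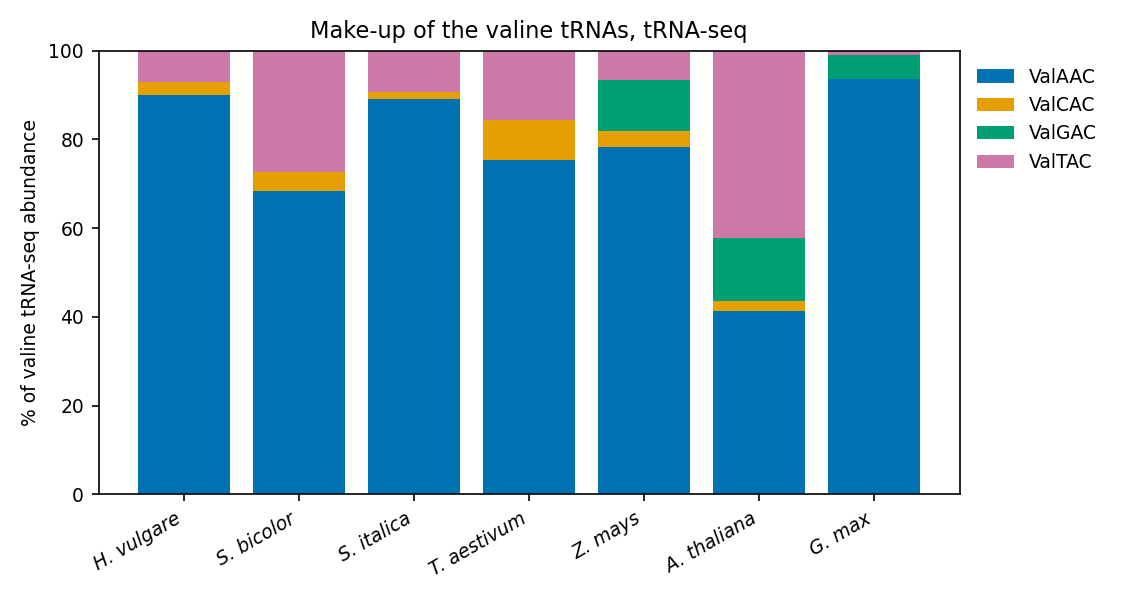
Make-up of the valine tRNAs in tRNA-seq, as percent of the valine abundance of each library, grasses left and eudicots right. ValAAC fills between 68.3% and 93.7% of the bar in 6 species and 41.4% in A. thaliana, where ValTAC and ValGAC hold 42.1% and 14.3%.

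The 5 grasses were compared with the 2 eudicots over species in all 52 families, on the scale of log2(percent + 0.01), with a two-sided exact permutation test and Benjamini-Hochberg adjustment. With 21 splits of the species this test cannot give a p below 0.095. ValCAC averaged 0.249% ± 0.177 (SD, n = 5) in grasses and 0.0148% in eudicots, a log2 difference of 3.33 (exact permutation p = 0.095, adjusted p = 0.62). With 0.001 in place of the added 0.01 this difference was 5.08, and with 0.1 it was 1.45. ValCAC was 1 of 3 families, 5.77% of those tested, in which all 5 grasses stood above both eudicots. ValGAC averaged 0.0268% ± 0.0599 (SD, n = 5) in grasses and 0.192% in eudicots, a log2 difference of -3.56 (exact permutation p = 0.095, adjusted p = 0.62). With 4 grasses at 0 the size of this difference depends on the added 0.01, and it was -6.17 with 0.001 and -1.30 with 0.1 in its place. It was 1 of 5 families, 9.62% of those tested, in which all 5 grasses stood below both eudicots, and such families of either direction made up 15.4%. Both anticodons overlapped between the groups when taken as a share of valine instead of the library.

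ValAAC averaged 5.69% ± 4.47 (SD, n = 5) in grasses and 2.02% in eudicots, a log2 difference of 1.54 (exact permutation p = 0.29, adjusted p = 0.71). This difference was 0.21 without A. thaliana, and without G. max it was 2.87 and ValAAC was higher in every grass. ValTAC averaged 0.776% ± 0.406 (SD, n = 5) in grasses and 0.297% in eudicots, a log2 difference of 1.82 (exact permutation p = 0.19, adjusted p = 0.66). It was 3.59 without A. thaliana and 0.06 without G. max, and without Z. mays it was 2.52; in the first and last of these, every grass was higher. The median difference was 1.68 over the 4 valine families and 0.18 over all 52. No valine family passed the test, 0 of 52 families had an adjusted p under 0.05 and 0 had an unadjusted p under 0.05, which the number of species does not allow.

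ValAAC ranked 1 or 2 in every species among the 8 families with an A in the first anticodon position, a base known to become inosine in the mature tRNA. Among them (AlaAGC, ArgACG, IleAAT, LeuAAG, ProAGG, SerAGA, ThrAGT and ValAAC) it ranked 1 in H. vulgare, S. bicolor, S. italica and Z. mays and in A. thaliana. It ranked 2 in T. aestivum, at 4.03% behind LeuAAG at 4.08%, and 2 in G. max, at 3.49% behind SerAGA at 16.0%. It held 43.2% of the summed abundance of the list in H. vulgare, 33.5% in S. bicolor, 78.8% in S. italica, 32.7% in T. aestivum and 37.6% for Z. mays, with A. thaliana at 36.3% and G. max at 16.4%.

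The families with the most similar pattern over the 7 species were found by the root mean square difference of log2(percent + 0.01), each family centred on its own mean, among families with a mean of at least 0.1%. For ValAAC they were ThrTGT at 1.11, LysCTT at 1.24 and IleAAT at 1.24, where the median family stood at 2.05. For ValCAC they were ThrCGT at 1.03, ValTAC at 1.05 and ArgTCT at 1.34. ValTAC was nearest to GlyCCC at 0.99, ValCAC at 1.05 and LysCTT at 1.12, so that ValCAC and ValTAC were each among the nearest of the other. ValGAC was nearest to ProTGG at 1.49, LeuCAA at 1.51 and LeuTAG at 1.57, where the median family stood at 2.70. ValGAC was listed at 0 in 4 of the 7 species, so its distances depend on the added 0.01. Its own mean also lay under the 0.1% asked of the families compared with it. These distances describe 7 libraries, 1 per species.

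In YAMAT-seq valine tRNAs were almost unread. In A. thaliana they had 1787 of 13439654 reads, or 0.0133% (exact Clopper-Pearson 95% interval 0.0127 to 0.0139). H. vulgare had 2 valine reads, S. italica 2, T. aestivum 4 and Z. mays 0, in libraries of 13059898, 6851530, 10517776 and 19833183 reads. Without molecular identifiers, PCR reads are not independent molecules, so the intervals hold for counting error alone. The 0 reads of Z. mays allow a share of up to 1.86e-05% (upper bound of the exact 95% interval). With so few reads the order of the grasses cannot be told. Among the 20 amino acids valine ranked 17 for H. vulgare, 18 for S. italica and 19 for T. aestivum, with A. thaliana at 18. In H. vulgare valine shared its rank with other amino acids, and only 1 amino acid had fewer reads. In Z. mays valine was 1 of 6 amino acids without reads, and the median amino acid had 701 reads there. Apart from 1 sequence of T. aestivum with the anticodon CAT, every listed sequence outside valine stood at least 20 edits from any A. thaliana valine gene.

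The share of each valine tRNA in YAMAT-seq, which is directed at full-length, CCA-ended molecules, was set against its share in tRNA-seq. The 2 assays differ in how libraries are made. For A. thaliana the labels differ too, with leaf and root in tRNA-seq and seedling in YAMAT-seq. The cause of a difference was not tested. ValAAC had 2 reads in S. italica, or 2.92e-05% (exact interval 3.54e-06 to 0.000105), against 9.36% of tRNA-seq. It had no listed reads in H. vulgare, where it led tRNA-seq at 11.4%, nor in T. aestivum, Z. mays and A. thaliana. The 0 reads in H. vulgare allow a share of up to 2.82e-05%. ValCAC had 2 reads in T. aestivum and 2 in A. thaliana, against 0.477% and 0.0297% of tRNA-seq, and none listed in the other 3 species. ValTAC had 2 reads in H. vulgare and 2 in T. aestivum, against 0.880% and 0.839% of tRNA-seq, and none listed in S. italica and Z. mays. ValGAC had reads in A. thaliana alone among the 5 species. A sequence outside the reference of a species would also go unlisted, and the sources used here do not say which tRNAs each reference held.

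ValAAC, ValCAC and ValTAC were lower in YAMAT-seq in 5 of 5 species, as were 31 of the 52 families, or 59.6%. In the other direction, 1 family, or 1.92%, had the larger share in YAMAT-seq in each of the 5 species. ValGAC was lower in the 2 species in which tRNA-seq lists it above 0 and at 0 in both assays in the other 3. The mean log2 ratio of percent + 0.01, YAMAT-seq over tRNA-seq, was -8.20 ± 1.96 for ValAAC, -3.88 ± 1.65 for ValCAC, -1.56 ± 2.13 for ValGAC and -5.48 ± 1.52 for ValTAC (SD, n = 5 species). With 5 species, an exact two-sided permutation test that flips signs cannot give a p below 0.063. ValAAC, ValCAC and ValTAC reached it (adjusted p = 0.10), as did 32 of 52 families, and ValGAC had p = 0.50 by the same exact test (adjusted p = 0.55). The median ratio was -4.68 over the valine families and -3.95 over all 52, and 0 families passed, at 0 with an unadjusted p under 0.05. YAMAT-seq shares of valine lay at or below the added 0.01 in nearly all libraries, so the size of these ratios depends on it, and with 0.1 in its place ValAAC stood at -4.96. YAMAT-seq totals also held much of 1 glycine family, GlyGCC, whose plastid sequence alone had 7431104 of the 13439654 A. thaliana reads. With GlyGCC left out of both totals the mean log2 ratios were -8.27 for ValAAC, -3.94 for ValCAC, -1.51 for ValGAC and -5.40 for ValTAC.

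**Figure D4:**
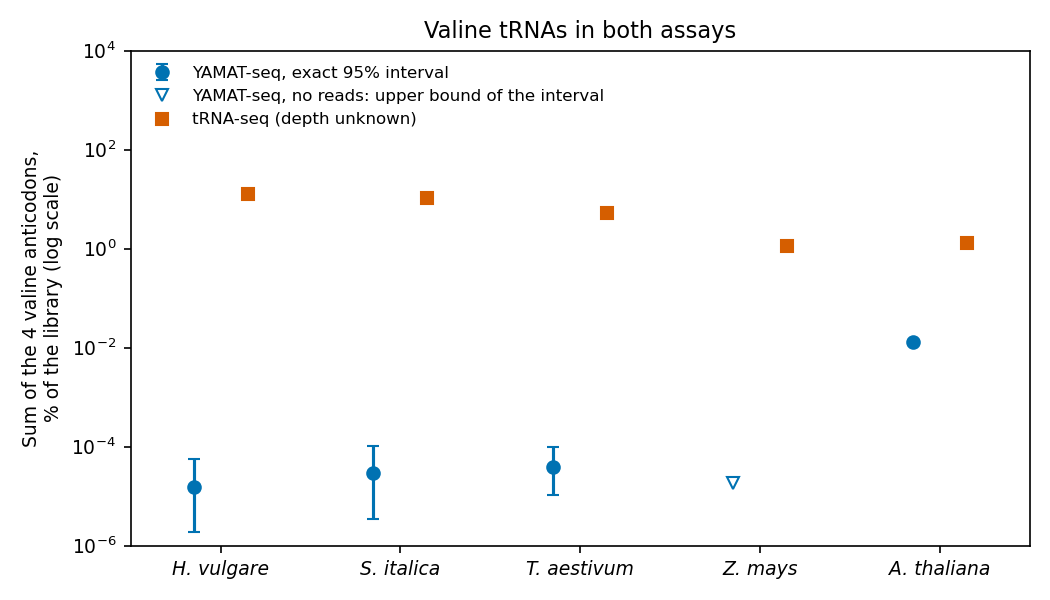
Summed share of the 4 valine anticodons, in percent of the library on a log scale, in the 5 species with both assays; circles are YAMAT-seq with exact 95% intervals, the open triangle is the upper bound of the interval for 0 reads in Z. mays, and squares are tRNA-seq, which has no known depth. YAMAT-seq reads lie at 0.0133% in A. thaliana and below 0.0001% in the grasses, against 1.16% to 12.6% of tRNA-seq.

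The valine reads of A. thaliana were nearly all plastid, as were those of the library as a whole. The plastid ValTAC and ValGAC sequences had 1781 of the 1787 valine reads, or 99.7%, and the nuclear sequences had 6, where plastid sequences had 96.2% of all reads. Plastid ValTAC outnumbered plastid ValGAC by 3.59 to 1. As a share of valine reads, ValTAC held 78.2% in YAMAT-seq, against 42.1% in tRNA-seq, ValGAC held 21.7% against 14.3%, and ValAAC had no listed reads against 41.4%. Compared with its library, ValGAC had 0.00289% (exact interval 0.00261 to 0.00319) in YAMAT-seq against 0.188% in tRNA-seq, a share 65.1 times as large in tRNA-seq. ValTAC had 0.0104% (exact interval 0.00986 to 0.0110) against 0.554%, a share 53.3 times as large in tRNA-seq.

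The plastid valine tRNAs were low among plastid tRNAs as well. Of the 12922471 reads that matched the plastid genome, 0.0138% were for valine (exact interval 0.0131 to 0.0144). Plastid ValTAC ranked 22 of 28 plastid families and ValGAC ranked 27, where the median family had 6624 reads. The nuclear valine tRNAs had a lower listed share of their own pool, at 0.00330% (exact interval 0.00121 to 0.00718). This share rests on 6 of the 181928 reads whose sequences matched the nuclear but no organelle genome. The 2 intervals did not overlap, but they hold for counting error alone, as PCR reads are not independent molecules. Both pools come from the same library, so whether they differ in valine was not tested. In the nuclear pool the median family had 30 reads, and ValTAC and ValCAC ranked 33 and 36 of 39, with no nuclear family listed below ValCAC.

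The TAIR10.1 annotation holds 33 valine tRNA genes, 30 nuclear and 3 plastid. The nuclear genes are 15 of ValAAC, 8 of ValCAC and 7 of ValTAC, and few sequences stand behind them: 13 of the 15 ValAAC genes, 7 of the 8 ValCAC genes and 5 of the 7 nuclear ValTAC genes are identical. ValAAC was 18.3 times as abundant as ValCAC in tRNA-seq, against 1.88 times as many genes. Both have nuclear genes only, so this ratio is free of plastid tRNAs. ValCAC stood at only 3.0 times the smallest value above 0 in the A. thaliana library. The ratio, and the share of ValCAC set against codons below, thus rest on a value near the lowest listed. ValTAC and ValAAC were nearly level in tRNA-seq, at 0.554% and 0.544%, against 8 and 15 genes, with the single plastid gene counted among the 8. Over 27415 nuclear coding sequences, 1 per gene, GTT made up 40.4% of valine codons, GTC 18.5%, GTA 15.4% and GTG 25.7%. GTG, which CAC reads, was thus 25.7% of nuclear valine codons, against 2.26% for ValCAC among valine tRNAs in tRNA-seq. The tRNA share is of nuclear and plastid valine tRNAs together, and the codons were not weighted by expression. It is known that tRNAs with UAC read GTG as well. Over 85 plastid coding sequences GTT made up 37.5%, GTC 12.5%, GTA 35.8% and GTG 14.2%, so that the codons assigned to GAC and to UAC were equal in number.

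**Figure D5:**
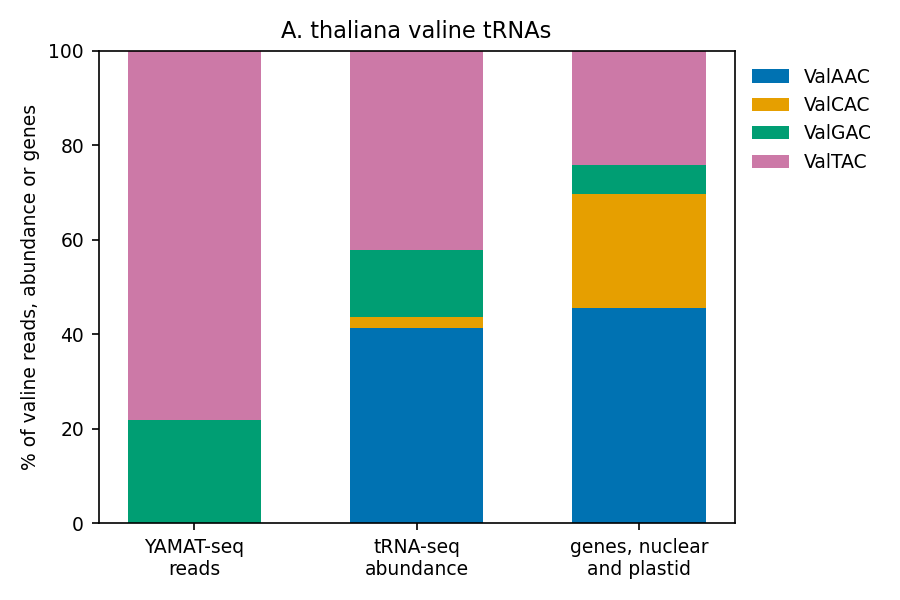
Make-up of the A. thaliana valine tRNAs as percent of valine reads in YAMAT-seq, of valine abundance in tRNA-seq and of the 33 valine tRNA genes of TAIR10.1. YAMAT-seq holds ValTAC at 78.2% and ValGAC at 21.7%, with ValCAC too small to see, against 42.1% and 14.3% in tRNA-seq, while ValAAC holds 41.4% of tRNA-seq and 45.5% of the genes.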

How the data were processed

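tRNA-seq values were deposited by the authors as percent of the total tRNA abundance of a library, per the file headers. YAMAT-seq values were deposited as raw read counts per tRNA sequence, with a lowest count of 1. Cutadapt and the build TAIR10 are named in the submitters' processing notes, and the sources used here give no aligner or reference tRNAs. YAMAT-seq cDNA had 12 PCR cycles, per the labels' protocols.

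Groups came from the sample titles. The anticodon rule took the 7-base loop closed by the best 5-pair stem. Percentages were compared as log2(percent + 0.01) with exact permutation tests over species and Benjamini-Hochberg adjustment over 52 families (numpy 2.4.6, scipy 1.17.1, statsmodels 0.14.6); the tests were checked on simulated data. Other pseudocounts, denominators and left-out species were tried. Edit distances used edlib 1.3.9.post1. A. thaliana sequences, genes and codons were matched to TAIR10.1, where the rule gave 30 of 30 annotated valine anticodons and 551 of 625 over all tRNA genes. Codon counts used the longest coding sequence per gene.

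The 4 valine families and the most-read sequence per anticodon and library were named, with all sequences of at least 1000 reads and the 3 nearest families; the T. aestivum sequence with anticodon CAT was named after its values were seen. Members and lists were chosen with earlier results of these data known.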

Additional observations from a re-analysis of the deposited data

Results flagged for a closer look

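Z. mays stood apart from the other 4 grasses in 3 tRNA-seq values, by the size of its gap to the nearest grass relative to the range of the 5. ValTAC was 0.0753% in Z. mays, the lowest of the grasses. ValGAC was 0.134% in Z. mays, the only grass above 0, and it held 11.6% of the valine abundance there. With the other 4 grasses listed at 0, any ValGAC value above 0 would have been singled out, so these 2 gaps carry no test. For ValTAC the gap was 0.73 of the range against a cutoff of 0.71, and 0.02 when taken as a share of valine. Chance singles out about 1 in 20 groups. Every valine anticodon, also as a share of valine, and the valine sum were scanned, so a flag by chance is likelier than that. The 3 values come from 1 library and share its total.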

How the results depend on the processing

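No call passed a test, and directions were kept except for ValGAC between assays, whose mean log2 ratio was 0.15 as a share of valine (4 species, as Z. mays has no valine reads); the cause was not tested. With the largest family left out of the total, valine was 14.3% (H. vulgare), 5.09% (S. bicolor), 13.4% (S. italica), 6.23% (T. aestivum), 1.56% (Z. mays), 1.67% (A. thaliana) and 5.02% (G. max) of tRNA-seq; rescaling to 100 gave 4.16% in S. bicolor and 1.31% in A. thaliana. Without GlyGCC in the total, valine was 6.4e-05% (H. vulgare), 0.000279% (S. italica), 0.000244% (T. aestivum) and 0.0298% (A. thaliana) of YAMAT-seq, and without sequences under 10 reads T. aestivum, S. italica and H. vulgare stood at 0%. Among nuclear sequences alone, a choice made after seeing the data, valine was 0.00330% of A. thaliana reads. Without plastid sequences ValTAC held 66.7%, ValCAC 33.3% and ValGAC 0% of the remaining 6 A. thaliana valine reads. Pseudocounts of 0.001 and 0.1 gave ValAAC ratios between assays of -11.50 and -4.96 and grass differences of 5.08 and 1.45 for ValCAC and of -6.17 and -1.30 for ValGAC. Leaving out each species in turn moved the ValAAC ratio between -8.80 and -7.71. No paired analysis was possible because each group has 1 library and no replicate number to block on; the comparison between assays is itself paired by species. Unknown tRNA-seq depth and grass counts of 4 reads or fewer limit every comparison.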

Other observations

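A T. aestivum YAMAT-seq sequence with the anticodon CAT had the body of ValCAC. It had 2 reads, was counted with MetCAT by its anticodon, and was noticed by its distance to the valine genes.
T. aestivum sequence with anticodon CAT: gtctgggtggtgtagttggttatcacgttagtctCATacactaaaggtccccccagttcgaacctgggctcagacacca
It stood 3 edits from the T. aestivum ValCAC sequence, the substitution C37T in the last anticodon base and 2 extra bases in the run of C further on, and 29 edits from the next nearest T. aestivum sequence with this anticodon. The amino acid it carries was not measured.

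In TAIR10.1, 3 of the 15 nuclear ValAAC genes of A. thaliana lie within 8346 bases, at chr3:16885891-16894236 on the plus strand, and 2 of them have the sequence shared by 13 genes. Of the 30 nuclear valine genes, 12, or 40.0%, have a sequence with any YAMAT-seq read, as have 369 of 602 nuclear tRNA genes identical to no organelle sequence, or 61.3%. Genes of 1 sequence share their reads, so the 2 shares were not tested against each other.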
